A study of Mus musculus with 17 samples.

Results

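The expression of 10 astrocyte genes whose secreted or shed products act on synapses was examined in cultured mouse astrocytes. The genes were chosen by symbol and are Sparc, Sparcl1, Thbs1, Thbs2, Thbs4, Gpc4, Gpc5, Gpc6, Chrdl1 and Tgfb2, and all 10 were found among the 56691 gene rows of the count table. The astrocytes were immunopanned from the brains of P2 C57BL/6 mice, after removal of meninges, olfactory bulbs and cerebellum, by passing cells over CD45 and O4 antibody dishes and retaining those that bound HepaCAM. They were grown without serum, with HB-EGF and N-acetyl cysteine in the medium of every group. In the first experiment, SAG, a small-molecule agonist of Smoothened that turns on Sonic hedgehog signaling, was given at 500 ng/ml for 3 d from 3 d in vitro (3 libraries). DMSO, its solvent, was the control (3 libraries). In the second, FGF2 (4 libraries) or FGF10 (3 libraries) was given at 50 ng/ml for 7 d from 2 d in vitro, with PBS as the control (4 libraries). The comparisons ask whether these local signals, given to isolated astrocytes, change the genes. The study's methods call the replicates biological, and its legend for SAG and DMSO calls them sample pools. Neither these nor the labels say whether the replicates came from separate mice or cultures. The p-values measure the spread between these samples, which may be in part technical.

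Astrocytes control when and where synapses form through proteins that they release. Sparcl1 (Hevin) bridges presynaptic neurexin and postsynaptic neuroligin and promotes the formation of excitatory synapses, and its relative Sparc, a matrix-associated glycoprotein, antagonizes that activity. Thrombospondins (Thbs genes) act through the calcium channel subunit α2δ-1 (Cacna2d1) to promote structurally complete but postsynaptically silent synapses. The glypicans Gpc4 and Gpc6 are heparan sulfate proteoglycans that are shed from the astrocyte surface and recruit AMPA receptors containing GluA1 (Gria1), whereas Chrdl1 (chordin-like 1), a bone morphogenetic protein antagonist, promotes synapse maturation by recruiting GluA2 (Gria2). Tgfb2 encodes a transforming growth factor-β ligand, a family that also promotes synapse formation.

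The 17 libraries held 17481727 to 68342287 counts each. All 9 astrocyte markers examined had reads in every group, with a summed level of 3422 to 5442 CPM (counts scaled to library size). The 7 microglial and macrophage markers summed to at most 4.36 CPM, the 6 fibroblast markers to at most 19.5 CPM and the 7 endothelial and mural markers to at most 24.9 CPM. The 7 oligodendrocyte lineage genes summed to 1124 to 2408 CPM, most of it Olig2, which is also expressed by some astrocytes, while Mog, a gene of myelinating oligodendrocytes, averaged 0 CPM in 4 of the groups and 0.916 CPM in PBS. The 7 neuronal genes summed to 24.0 to 168 CPM. In such bulk samples, fewer cells of a type and less RNA per cell cannot be told apart.

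Sparc and Sparcl1 made up 87.2 to 97.0% of the summed CPM of the 10 genes in every library. The 3′ mRNA kit reads transcripts from their 3′ end, so that counts are not expected to scale with transcript length. The use of molecular identifiers, which mark copies of one molecule, is not given. CPM therefore compares one gene with another only roughly. Averaged over 17 libraries, Sparc was at 1270 CPM, above 99.89% of gene rows, and Sparcl1 at 463 CPM, above 99.64%. Tgfb2 (55.2 CPM), Gpc4 (18.6 CPM) and Gpc6 (8.47 CPM) had reads in all 17 libraries. Thbs1 (9.25 CPM) had reads in 15 libraries and Chrdl1 (5.34 CPM) in 14. Thbs4, Thbs2 and Gpc5 were near or at the limit of detection, with reads in 3, 2 and 1 libraries respectively.

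In the GRCm38 build, Sparc lies at chr11:55394500-55423183 and Sparcl1 at chr5:104079111-104113733, both on the minus strand. Thbs1 lies at chr2:118111876-118127133, Thbs2 at chr17:14665500-14694235 and Thbs4 at chr13:92751590-92794818. Gpc4 and Chrdl1 are both X-linked, at chrX:52053021-52165252 and chrX:143285674-143394262. Gpc5 and Gpc6 are neighbors on chromosome 14, at chr14:115092215-116525179 and chr14:116925315-117976544, each spanning more than a megabase. Tgfb2 lies at chr1:186622792-186705989. Annotated genes that are also rows of the table overlap Sparcl1 (Gm26703), Thbs1 (Gm29233), Gpc5 (4930505G20Rik, Gm18367 and Gm20713), Gpc6 (Mir6239) and Tgfb2 (Gm26169 and Gm29491) on the opposite strand. The strand setting of the counting is not given in the sources used here, so that reads of these pairs may not have been told apart.

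RefSeq promoter windows were at hand for 6 of the 10 genes. The 250 bases before the start site are shown for Sparc and Tgfb2. Both had lower means in replicates 3 and 4 of the FGF experiment, with overlapping ranges for Tgfb2. This is not particular to them. Gpc4 also had a lower mean there (17.3 against 20.4 CPM, overlapping), as did Thbs4 and Gpc5, which were near or at the limit of detection. The Sparc window lies inside the gene span given above, which comes from another annotation with its own start sites. Capitals mark TATAAA on either strand.
Sparc promoter, chr11:55420081-55420330, minus strand: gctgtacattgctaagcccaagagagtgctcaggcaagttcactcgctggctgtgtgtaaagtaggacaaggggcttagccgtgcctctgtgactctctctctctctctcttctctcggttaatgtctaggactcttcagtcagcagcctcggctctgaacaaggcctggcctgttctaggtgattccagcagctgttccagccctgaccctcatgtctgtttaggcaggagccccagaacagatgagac
Tgfb2 promoter, chr1:186705990-186706239, minus strand: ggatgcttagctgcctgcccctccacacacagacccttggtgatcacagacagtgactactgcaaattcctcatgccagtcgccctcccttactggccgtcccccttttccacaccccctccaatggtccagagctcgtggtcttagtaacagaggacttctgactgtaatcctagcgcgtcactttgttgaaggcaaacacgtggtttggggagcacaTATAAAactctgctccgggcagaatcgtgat
Tgfb2 carries the motif 31 bases before its start site, where a TATA box is usually found, and the Sparc window has no match. TATAAA occurs in 12.4% of 32851 such windows. Neither GACCACCCA, bound by the GLI factors of hedgehog signaling (0.225% of windows), nor CCGGAAGT, an ETS factor motif (2.88%), was found on either strand in the windows of the 6 genes. The motifs do not overlap each other in these windows.

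The mean level of Sparcl1 was about 1.97 times as high in SAG as in DMSO, a difference that did not pass the test across all genes. Sparcl1 was at 437, 506 and 480 CPM in DMSO and at 909, 1052 and 795 CPM in SAG. Each SAG library was above each DMSO library. The log2 fold change was 0.98 (SE 0.17, n = 3 per group), with an unadjusted p of 9.93e-05 by edgeR's quasi-likelihood test, the 14th smallest of 12538 genes tested, and a Benjamini-Hochberg adjusted p of 0.0889. The exact two-sided permutation test gave p = 0.1, the smallest it can give for 3 against 3.

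This call turned on the filter and the tool. With DESeq2's Wald test the adjusted p of Sparcl1 was 1.28e-10, with no filter on low counts it was 0.00166 and with a filter on the mean count 0.00462. It missed the threshold with other size factors (0.0705), with the replicate number as a block (0.0707), with all 17 libraries in one fit (0.449) and without any single library (0.184 to 0.52), although the log2 fold change stayed between 0.88 and 1.07 throughout.

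Sparc did not share the direction of Sparcl1. Sparc was at 1147, 1219 and 1402 CPM in DMSO and at 1087, 1030 and 1025 CPM in SAG. The SAG libraries were all below the DMSO libraries, by a small margin. The log2 fold change was -0.24 (SE 0.15, adjusted p = 1 by edgeR). Within a library, the ratio of Sparcl1 to Sparc counts does not depend on library scaling. It was 0.381, 0.415 and 0.342 in DMSO and 0.837, 1.02 and 0.776 in SAG, a measure chosen after the values were seen and therefore given with no test.

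**Figure D1:**
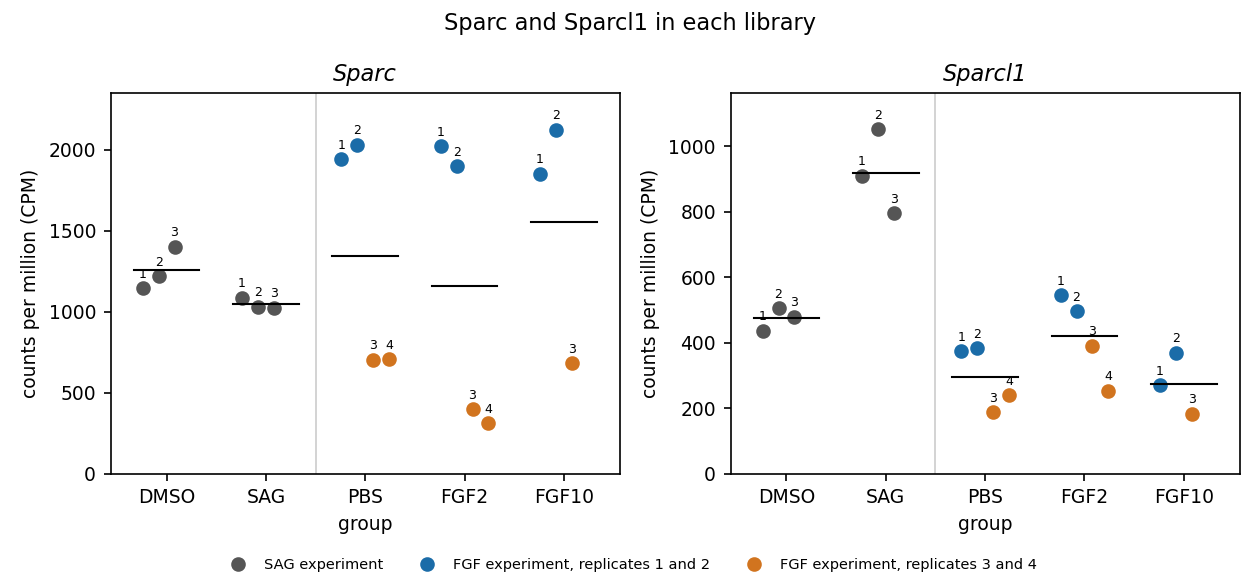
CPM (linear axes from 0) of Sparc and Sparcl1 in each of the 17 libraries by group, each point a library with its replicate number and each line the group mean. Sparcl1 lies between 795 and 1052 CPM in SAG, above all other groups, and Sparc lies at 1853 CPM or above in all replicates 1 and 2 of the FGF experiment and at or below 706 CPM in all replicates 3 and 4.

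None of the 10 genes was called at an adjusted p under 0.05 between SAG and DMSO, of 6 that passed the filter on low counts. Of all genes tested, 8 were called (0.0638%). Sparc and Sparcl1 were the 2 members without overlap between the groups, a pattern seen in 14.1% of all genes tested. Over the 6 tested genes the median log2 fold change was -0.19, beside -0.02 over all genes. At an unadjusted p under 0.05 there were 714 genes, 1 of them a member. Ptch1, a hedgehog receptor and target gene, rose with SAG and was at 469 CPM ± 11.7 (SD, n = 3) in SAG and 84.0 ± 18.0 in DMSO (log2 fold change 2.50, adjusted p = 0.00173 by edgeR).

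Levels of some markers also lay apart between SAG and DMSO. Of the 9 astrocyte markers, 3 (Gfap, Sox9 and Gja1) were lower in SAG without overlap, 1 (Aldh1l1) was higher and 5 overlapped. Gfap, an intermediate filament protein of astrocytes, was at 40.4 CPM ± 17.7 in SAG and 174 ± 30.7 in DMSO, with a log2 fold change of -2.08 and an adjusted p of 0.0854. Aldh1l1 was at 278 ± 76.1 and 162 ± 9.83 CPM, with a log2 fold change of 0.80 and an adjusted p of 0.484. The astrocyte list summed to 3646 to 4290 CPM in SAG and 4151 to 4508 CPM in DMSO, and the oligodendrocyte lineage list to 1918 to 2045 against 1231 to 1685 CPM, with Mog at 0 in all 6 libraries. In that list Olig2 was higher in SAG without overlap, at 1840 CPM ± 62.2 against 1154 ± 261 (adjusted p = 0.369), Sox10 was lower and the other 5 genes overlapped. Whether these shifts had a part in the level of Sparcl1 was not tested.

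Among the synapse-recruiting glypicans, Gpc4 was at 8.49, 39.1 and 26.9 CPM in DMSO and at 6.43, 5.14 and 21.5 CPM in SAG. The groups overlapped, and the log2 fold change of -1.15 had an SE of 0.99 (adjusted p = 1). It was -2.09 without SAG replicate 3 and -0.66 without DMSO replicate 2. Gpc6 was at 9.13, 9.08 and 7.91 CPM in DMSO and at 0.372, 10.2 and 2.45 CPM in SAG. Its 3 DMSO libraries lay close together and its 3 SAG libraries did not, with a log2 fold change of -0.98 (SE 1.94), which was -2.59 without SAG replicate 2 and -0.44 without SAG replicate 1.

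Chrdl1 had 697 and 999 counts in 2 SAG libraries and 0 in the third. In DMSO it had 0, 6 and 0 counts. A count of 0 allows up to 0.0965 CPM in SAG replicate 3, 0.0618 CPM in DMSO replicate 1 and 0.0791 CPM in DMSO replicate 3 (3 counts, counting error only), beside 19.9 and 14.9 CPM in the other SAG libraries. The groups overlapped at 0. Chrdl1 did not pass the filter, and without a filter its adjusted p was 0.594 by edgeR.

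Thbs1 was the most abundant of the 3 thrombospondins among the 10 genes. It was at 11.4, 9.32 and 11.2 CPM in DMSO and at 10.8, 13.4 and 8.88 CPM in SAG, with a log2 fold change of 0.07 (95% interval -2.41 to 2.56). Thbs4 had 15 counts in DMSO replicate 2 and 415 in DMSO replicate 3, and none in the other libraries of this experiment. Thbs2 and Gpc5 had no counts in these 6 libraries. Tgfb2 was at 92.6, 59.5 and 25.1 CPM in DMSO and at 51.4, 83.1 and 22.7 CPM in SAG. Both groups spanned a similar range (log2 fold change -0.15, SE 0.55).

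**Figure D2:**
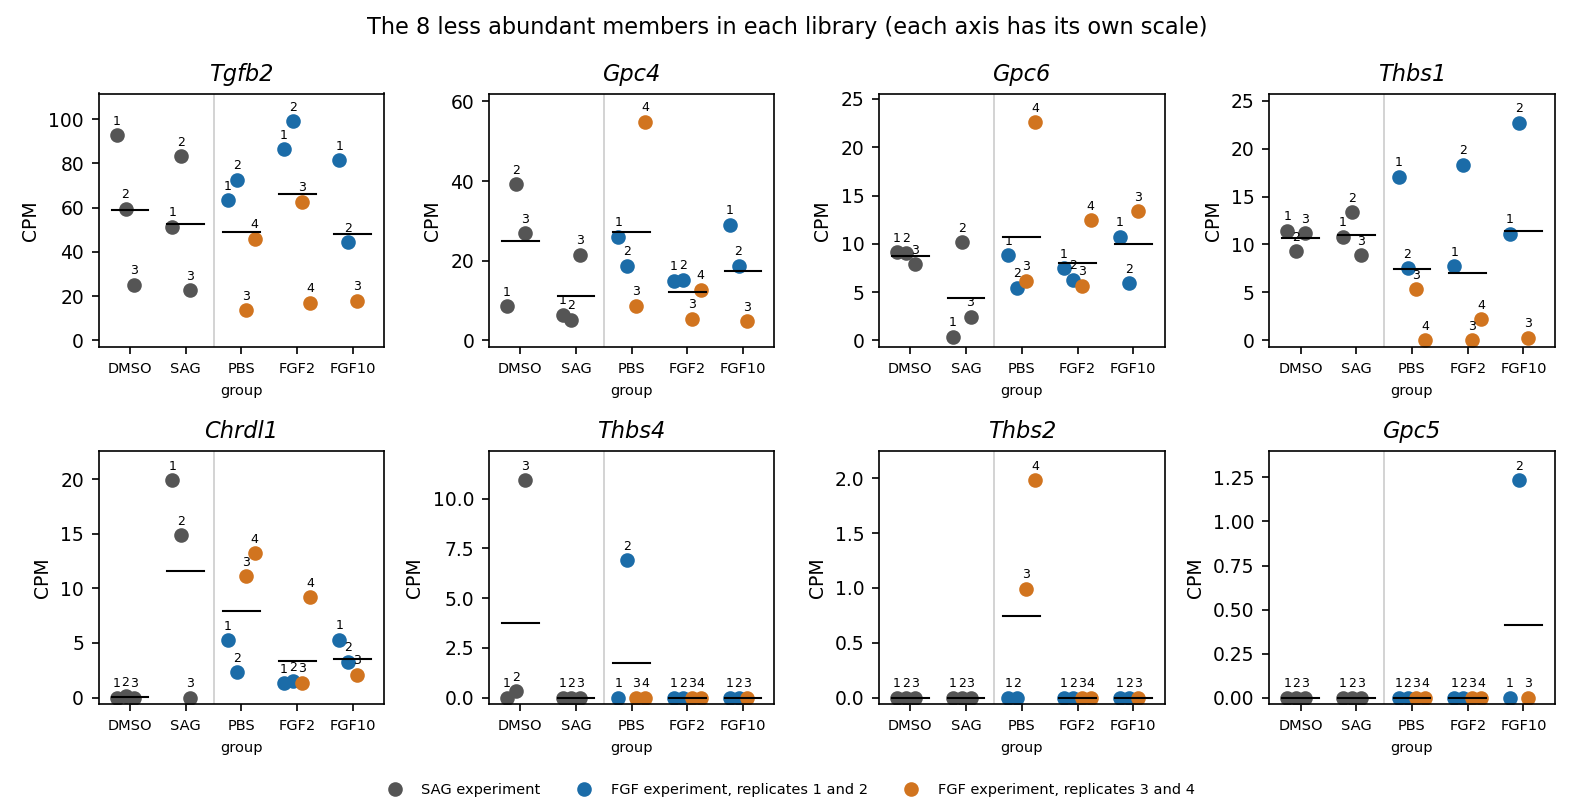
CPM of the other 8 genes in each library by group, each point a library with its replicate number and each line the group mean, with a scale of its own for each gene. Chrdl1 is at 0 in SAG replicate 3 beside 14.9 and 19.9 CPM in the other SAG libraries, and Thbs4, Thbs2 and Gpc5 have reads in 3, 2 and 1 of the 17 libraries.

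In the FGF experiment, Sparc differed more between replicates than between treatments. Sparc was at 1942, 2033, 704 and 706 CPM in PBS replicates 1 to 4. It was at 2023, 1900, 398 and 311 CPM in FGF2, and at 1853, 2125 and 681 CPM in FGF10. In each of the 3 groups, replicates 1 and 2 were at 1853 CPM or above and replicates 3 and 4 at or below 706 CPM.

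The same division separated some astrocyte markers, in both directions. Over the 3 groups, 4 of the 9 markers (Gfap, Sox9, Gja1 and Aldoc) were lower in replicates 3 and 4 without overlap, 1 (Aldh1l1) was higher and 4 overlapped. Gfap ranged from 257 to 401 CPM in replicates 1 and 2 and from 10.9 to 87.9 CPM in replicates 3 and 4, and Aldh1l1, a folate enzyme of astrocytes, from 167 to 246 and from 303 to 432 CPM. In the oligodendrocyte lineage list, Olig2 was higher without overlap, at 754 to 982 CPM in replicates 1 and 2 and 1504 to 2215 CPM in replicates 3 and 4. The part of these shifts in the levels of the members was not tested. The labels give no batch, and the division was seen in these same values. The following fit is therefore a description, and its standard errors are no test of the division. The fit set 568 of 12957 genes apart at an adjusted p under 0.05 by edgeR, so that the division is not particular to the members. With the treatment in the fit, replicates 3 and 4 were below replicates 1 and 2 by a log2 difference of -1.86 (SE 0.15) for Sparc, -0.76 (SE 0.15) for Sparcl1 and -1.34 (SE 0.38) for Tgfb2. The ranges did not overlap for Sparc, but they did for Sparcl1 (270 to 544 against 183 to 391 CPM) and for Tgfb2 (44.3 to 99.0 against 13.5 to 62.6 CPM). Thbs1 ranged from 7.55 to 22.7 CPM in replicates 1 and 2 and from 0 to 5.33 CPM in replicates 3 and 4. Gpc6 and Chrdl1 had higher means in replicates 3 and 4, 12.0 against 7.45 CPM and 7.39 against 3.16 CPM, with overlapping ranges.

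FGF2 compared with PBS changed none of the 10 genes past the test. Of 7 members and 12744 genes tested, 0 were called by edgeR (0%). At an unadjusted p under 0.05 there were 223 genes, with 0 members among them, and DESeq2 called 9 genes and 0 members. Groups did not overlap for 2.44% of all genes tested and for 0 members.

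Sparcl1 was at 373, 383, 187 and 240 CPM in PBS and at 544, 497, 391 and 253 CPM in FGF2. FGF2 was higher than PBS at each of the 4 replicate numbers, while the groups overlapped as wholes. The log2 fold change was 0.51 (SE 0.28, adjusted p = 0.9998 by edgeR). It was 0.46 (SE 0.18) in replicates 1 and 2 and 0.58 (SE 0.27) in replicates 3 and 4, and 0.51 (SE 0.17) with the replicate number as a block.

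For Sparc, the log2 fold change over all replicates was -0.22 (SE 0.56, adjusted p = 0.9998), and -0.51 (SE 0.19) with the replicate number as a block, which did not pass the test either. It was -0.02 (SE 0.13) in replicates 1 and 2 alone and -1 (SE 0.19, adjusted p = 0.924) in replicates 3 and 4 alone, where both FGF2 libraries were below both PBS libraries. Whether the sets differ in their response was not tested. The ratio of Sparcl1 to Sparc counts was 0.192, 0.189, 0.266 and 0.340 in PBS and 0.269, 0.261, 0.983 and 0.812 in FGF2, again a description chosen after the values were seen. The ratios of FGF2 replicates 3 and 4 were within the range of the SAG libraries. The ratio in FGF10 was 0.146, 0.174 and 0.269.

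**Figure D3:**
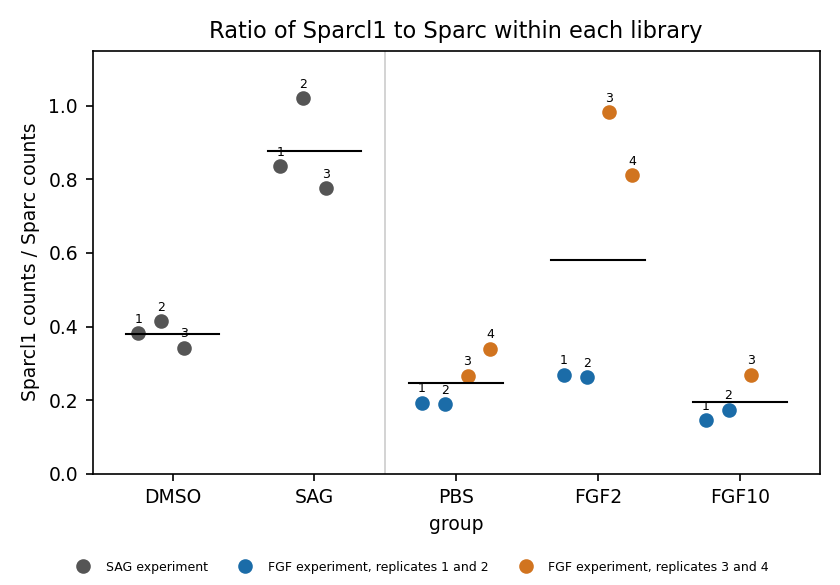
Ratio of Sparcl1 to Sparc counts in each library (linear axis from 0) by group, each point a library with its replicate number and each line the group mean. SAG libraries and FGF2 replicates 3 and 4 lie between 0.776 and 1.02, and the other 12 libraries at or below 0.415.

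Gpc4 was at 26.0, 18.8, 8.67 and 54.9 CPM in PBS and at 14.9, 15.2, 5.41 and 12.7 CPM in FGF2. It was lower in FGF2 at each replicate number, with overlap between the groups and a log2 fold change of -1.17 (SE 0.69), which was -0.56 without PBS replicate 4. Chrdl1 was at 5.24, 2.34, 11.1 and 13.2 CPM in PBS and at 1.31, 1.48, 1.35 and 9.20 CPM in FGF2. It too was lower at each number, with a log2 fold change of -1.25 (95% interval -4.19 to 1.69), which was -2.53 without FGF2 replicate 4. Neither passed the test (adjusted p = 0.9998 by edgeR for both).

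Tgfb2 was at 63.2, 72.6, 13.5 and 46.0 CPM in PBS and at 86.3, 99.0, 62.6 and 17.04 CPM in FGF2. FGF2 was higher in 3 of 4 replicate numbers (log2 fold change 0.44, SE 0.54). Gpc6 ranged from 5.44 to 22.6 CPM in PBS and from 5.64 to 12.4 CPM in FGF2. Thbs1 was listed at 0 in PBS replicate 4 and FGF2 replicate 3 and reached 17.1 CPM in PBS and 18.3 CPM in FGF2, so that its log2 fold change of -0.08 carried a 95% interval from -3.81 to 3.65. Thbs2 had 35 and 63 counts in PBS replicates 3 and 4, Thbs4 had 245 counts in PBS replicate 2, and both were at 0 in the FGF2 and FGF10 libraries.

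FGF10 compared with PBS also changed none of the 10 genes past the test. This comparison shares its PBS libraries with the one above. Of 7 members and 13309 genes tested, 0 were called by edgeR (0%), with 305 genes and 0 members at an unadjusted p under 0.05, and DESeq2 called 37 genes and 0 members. Groups did not overlap for 4.80% of genes and 0 members. Sparcl1 was at 270, 369 and 183 CPM in FGF10 (log2 fold change -0.11, SE 0.30) and Sparc had a log2 fold change of 0.21 (SE 0.42), which was -0.08 (SE 0.18) with the set of replicates in the fit.

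The remaining members were as variable in FGF10. Tgfb2 was at 81.5, 44.3 and 17.9 CPM, Gpc4 at 29.0, 18.7 and 4.73 CPM and Gpc6 at 10.7, 5.91 and 13.4 CPM. Chrdl1 was at 5.28, 3.28 and 2.09 CPM and Thbs1 at 11.1, 22.7 and 0.261 CPM. Gpc5, a glypican, had 60 counts in FGF10 replicate 2 and none elsewhere.

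Between FGF2 and FGF10, which activate overlapping but distinct sets of FGF receptors, 0 of 7 members and 0 of 13493 genes were called by edgeR (0%). There were 324 genes and 0 members at an unadjusted p under 0.05, and DESeq2 called 28 genes and 0 members. Groups did not overlap for 4.94% of genes and 0 members. Sparcl1 had the highest value among the members, a log2 fold change of 0.62 (SE 0.31, adjusted p = 0.9999 by edgeR), with FGF2 at a mean of 421 CPM ± 129 (SD, n = 4) and FGF10 at 274 ± 93.3 (SD, n = 3). Sparcl1 libraries from 253 to 369 CPM occurred in both groups.

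**Figure D4:**
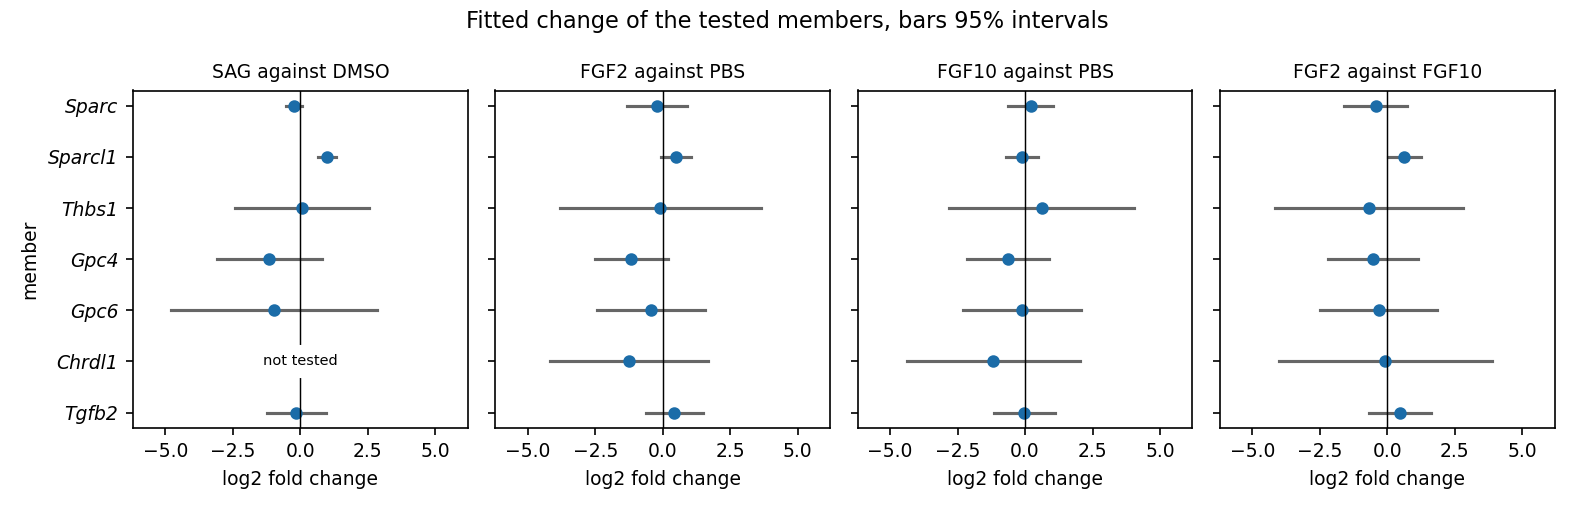
Fitted log2 fold change (horizontal axis) of each tested member in the 4 comparisons, with bars for the 95% interval and a line at 0. Chrdl1 was not tested between SAG and DMSO, and the interval of Sparcl1 in SAG against DMSO, 0.65 to 1.30, is the one farthest from 0, although its adjusted p was 0.0889.

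In the order of group means, Sparcl1 was highest in SAG (919 CPM ± 129), followed by DMSO (474 ± 34.8), FGF2, PBS (296 ± 97.6) and FGF10. SAG and DMSO were the one pair of neighbors in that order whose libraries did not overlap. Sparc ran from FGF10 (1553 CPM ± 767) to SAG (1047 ± 34.4), and every pair of neighbors overlapped. The experiments differed in the length of treatment, the start day and the control, and only values within an experiment were tested.

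Sparc and Sparcl1 put the libraries in the same order within PBS, FGF2 and FGF10, but not within DMSO or SAG. Over the 17 libraries, the Pearson correlation of Sparc with Sparcl1 in log2 CPM was 0.31. It was 0.87 once the mean of each group had been subtracted. The values for Sparc and Tgfb2 were 0.56 and 0.65, and for Sparcl1 and Tgfb2 0.45 and 0.78. These libraries share groups and the replicate sets of the FGF experiment, and the correlations are descriptions.

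Among 9070 genes with a mean of 10 CPM or more, the genes with a pattern most like that of Sparc over the 17 libraries were Clu (r = 0.96), which encodes the secreted chaperone clusterin, and Meg3 (r = 0.95), a long noncoding RNA. Those most like Sparcl1 were Gria2 (r = 0.92), the AMPA receptor subunit GluA2, and Itgb5 (r = 0.86), an integrin subunit. For Gpc4 they were Nsg1 (r = 0.76) and Mat2a (r = 0.72), and for Tgfb2 they were Jade2 (r = 0.83) and Igfbpl1 (r = 0.82).

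Genes of the same families, of receptors and binding partners and of transforming growth factor-β targets were examined as lists of 15, 28 and 8 genes. In each of the 4 comparisons, 0 of their tested genes were called by edgeR in either direction. Between SAG and DMSO, 9, 26 and 6 of them were tested, with 5, 14 and 3 at a positive log2 fold change and medians of 0.58, 0.04 and -0.28, beside -0.02 over all genes. At an unadjusted p under 0.05 there were 2, 4 and 0.

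Some partners of the members had no overlap between SAG and DMSO. Gria1, which encodes GluA1, was at 0, 2.68 and 0.448 CPM in DMSO and at 42.4, 90.4 and 86.1 CPM in SAG, on the edgeR scale a difference with wide error (log2 fold change 6.15, SE 1.34, adjusted p = 0.261). Gria2 was at 127, 215 and 163 CPM in DMSO and at 302, 298 and 306 CPM in SAG, with a log2 fold change of 0.87 (SE 0.23, adjusted p = 0.425). Nrxn3, a presynaptic neurexin, was at 59.2 CPM ± 7.55 in DMSO and 18.2 ± 12.8 in SAG (log2 fold change -1.68, SE 0.57, adjusted p = 0.592). None of the 3 passed the threshold of edgeR's test.

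In the families, Thbs3 was at 27.7 CPM ± 17.4 in SAG and 8.61 ± 8.93 in DMSO, and Smoc2, a relative of Sparc, had 403, 325 and 1433 counts in DMSO and 0 in the 3 SAG libraries (adjusted p = 0.369 by edgeR). Among the transforming growth factor-β targets, Skil, a feedback inhibitor of the pathway, had a log2 fold change of 0.99 (SE 0.90) and Ccn2, a matricellular protein, of -0.86 (SE 0.98).

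With the growth factors, the lists again held no called gene. Between FGF2 and PBS the extremes were Tgfb3 (log2 fold change 0.43) and Fstl1 (-0.33) in the families, Nptx1 (1.35) and Bmp6 (-1.77) among receptors and partners, and Skil (0.10) and Pmepa1 (-0.89) among the targets. Between FGF10 and PBS they were Tgfb3 (1.01) and Thbs3 (-0.64), Cacna2d2 (2.07) and Bmp7 (-1.41), and Bgn (0.62) and Pmepa1 (-0.10). Between FGF2 and FGF10 they were Thbs3 (0.67) and Tgfb3 (-0.56), Bmp7 (1.05) and Bmp6 (-2.10), and Ltbp3 (-0.35) and Ccn2 (-1.06). The adjusted p of each of these was 0.9998 or above by edgeR.

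The FGF readouts, genes that FGF signaling is known to raise, did not pass the test either. Etv4 was at 47.6 CPM ± 38.1 (SD, n = 4) in FGF2, 48.2 ± 36.7 (SD, n = 3) in FGF10 and 22.9 ± 15.8 (SD, n = 4) in PBS. Etv5 was at 82.9 CPM ± 52.4 (SD, n = 4) in FGF2, 51.3 ± 46.8 (SD, n = 3) in FGF10 and 55.3 ± 25.3 (SD, n = 4) in PBS, and Spry4 at 35.5 ± 36.6, 5.27 ± 1.24 and 10.3 ± 11.4 CPM. In each group, every readout was higher in replicates 3 and 4 than in replicates 1 and 2. In replicates 3 and 4, Spry4 was at 77.9 and 53.7 CPM in FGF2 and at 26.7 and 8.54 CPM in PBS. Etv4 and Etv5 were also higher in FGF2 than in PBS at both of these numbers. Spry4 at replicate 1 and Etv5 at replicate 2 were lower in FGF2 than in PBS. Whether the readouts respond differently in the sets was not tested.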

How the data were processed

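Bulk RNA-seq libraries were prepared by the authors with a 3′ mRNA kit. The deposited count table holds raw whole-number counts per gene, made by the authors by alignment with STAR to GRCm38, and the submitters' processing notes also name DESeq2. The annotation, the strand setting and the use of molecular identifiers are not given in the sources used here. The table has 56805 rows, of which 114 spike-in rows (at most 86 counts in a library) were set aside. All 17 libraries that the labels list were used, although the study's methods give 3 replicates for FGF2 and the labels 4. Totals ranged from 17481727 to 68342287 counts.

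Each comparison was fitted on the libraries of its 2 groups with the quasi-likelihood test of edgeR 4.0.16 in R 4.3.3, with TMM normalization, filterByExpr (minimum count 10, minimum total 15) and Benjamini-Hochberg adjustment over all genes tested, and genes were called at an adjusted p under 0.05. Standard errors are the log2 fold change over the square root of F, and 95% intervals use the normal quantile and are approximate. CPM values use TMM factors over all 17 libraries. Floors of 3 counts cover counting error only. The 95% intervals also take in the spread between libraries as estimated by the fit. Alternatives were DESeq2 1.42.0 (its Wald test and its size factors), other filters, all libraries in one fit, a replicate block, replicate sets, each library left out and the study's threshold (adjusted p under 0.01, absolute log2 fold change above 1). The fit was tested on simulated counts with a much smaller spread between libraries than the real ones. In the real fits the common coefficient of variation between libraries was 106.6 to 115.2%. The simulation therefore cannot show how often the fit finds or misses changes at that spread. No pair of replicates agreed within sampling noise (chi-square per degree of freedom from 152 to 532).

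The members, lists and tests were chosen with earlier results of these data known. Named genes are the 10 members, in each list the genes with the highest and lowest log2 fold change at a mean of 5 CPM or more, and for members at 10 CPM or more the 2 genes with the highest correlation. Markers and readouts are named where a result turns on them. Gria2, which is not an extreme of its list, is named by the correlation.

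Replicate numbers were checked for pairing by the correlation of deviations from the group means. For FGF2 and PBS it was 0.136, 0.149, 0.159 and 0.127 over the 4 numbers. Different numbers of the same set (1 and 2, or 3 and 4) correlated as highly (0.104 to 0.175), so that the values do not single out the numbers. For SAG and DMSO the correlation at the same number was at most 0.0168. The main fits therefore left pairing out, and the replicate number was a block in an alternative fit only. Comparisons at each replicate number are descriptions. Gene positions are from GENCODE M21 and promoter windows from RefSeq, both on GRCm38.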

Additional observations from a re-analysis of the deposited data

Results flagged for a closer look

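Among 16 member values in groups of 4 libraries that were examined, 2 had a single library far from the other 3 by Dixon's criterion. Its rate of about 1 in 20 groups by chance holds for normally distributed values, not for counts with many zeros. A gene at 0 in all but 1 library, like Thbs4 in PBS, is flagged at any level above 3 counts. Thbs4 was at 6.90 CPM in PBS replicate 2 and at 0 in the other 3 PBS libraries. Chrdl1 was at 9.20 CPM in FGF2 replicate 4 and between 1.31 and 1.48 CPM in the other 3 FGF2 libraries. Neither gene was called in a comparison with these groups.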

How the results depend on the processing

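The number of members called was 0 in each comparison and under every alternative run, except that Sparcl1 was called between SAG and DMSO (1 member) with no filter on low counts, with genes kept at a mean of 10 counts or more, and with DESeq2's Wald test. All genes called there numbered 76, 42 and 367, against 8. Of 401 alternative values of 27 log2 fold changes, 353 kept their direction and side of the threshold, 3 passed it (Sparcl1) and 45 changed sign, and 12 of the 27 never changed sign. The replicate block gave 0 called members in each comparison, and 12 genes called between SAG and DMSO.

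With the replicate block, log2 fold changes that changed sign were those of Thbs1 for FGF2 against PBS (0.0481), and for FGF10 against PBS those of Sparc (-0.011), Thbs1 (-0.932), Gpc6 (0.511) and Tgfb2 (0.0303). In replicates 1 and 2 only they were Thbs1 for FGF2 against PBS (0.0851), and for FGF10 against PBS Sparc (-0.00374), Gpc4 (0.088), Gpc6 (0.217) and Chrdl1 (0.171). With the replicate set in the fit they were Sparc (-0.0839), Thbs1 (-0.761) and Gpc6 (0.0503) for FGF10 against PBS and Thbs1 (0.0372) for FGF2 against FGF10. The cause was not tested.

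Leaving out one library changed the sign of Thbs1 (-0.0831 to 0.201) and Tgfb2 (-0.643 to 0.333) for SAG, and of Sparc (-0.627 to 0.094), Thbs1 (-1.17 to 0.721) and Gpc6 (-0.741 to 0.228) for FGF2 against PBS. For FGF10 against PBS it did so for Sparc (-0.0956 to 0.558), Sparcl1 (-0.397 to 0.107), Thbs1 (-0.398 to 1.39), Gpc6 (-0.374 to 0.549) and Tgfb2 (-0.663 to 0.362), and for FGF2 against FGF10 for Thbs1 (-1.78 to 0.313), Gpc4 (-0.985 to 0.0409) and Chrdl1 (-1.36 to 0.321). None of these values passed the test in any setting. Among values that kept their sign, leaving out one library moved Sparc (-0.304 to -0.154), Gpc4 (-2.09 to -0.66) and Gpc6 (-2.59 to -0.435) for SAG, Gpc4 (-1.47 to -0.562), Chrdl1 (-2.53 to -0.896) and Tgfb2 (0.124 to 0.755) for FGF2 against PBS, Gpc4 (-1.23 to -0.0318) for FGF10 against PBS, and Sparc (-0.832 to -0.109), Sparcl1 (0.397 to 0.896), Gpc6 (-0.631 to -0.0603) and Tgfb2 (0.0737 to 1.09) for FGF2 against FGF10 by over 1.5 times in at least one case.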
